A study of Mus musculus with 48 samples.

Results

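Collagens are the proteins that give skin its strength, and their genes were measured in dorsal skin of mice treated with DGAT1 inhibitors. DGAT1 is an enzyme of triglyceride synthesis. Members were all probesets whose annotated symbol has the form of a collagen chain gene (Col, a type number, a, a chain number), which gave 56 probesets for 41 genes out of 38385 probesets on the array. They were grouped by the form of the protein into 11 fibrillar, 8 basement membrane, 8 fibril-associated, 4 transmembrane and 10 microfibrillar or network-forming genes, the last group holding the genes that fit none of the others. There were 3 groups in each of 3 experiments: Cpd2, Cpd1 and vehicle in Study 1 (8 mice a group), Cpd2, Cpd6 and vehicle in Study 2 (4 mice a group), and Cpd6, Cpd18 and vehicle in Study 4 (4 mice a group). All mice were C57BL/6 males made obese by a high-fat diet, the labels give an age of 8 weeks and 14 days of treatment for every group, and no mutant line was used. Cpd2 and Cpd6 are classed in the study as skin-positive, that is as causing sebaceous gland atrophy, and Cpd1 and Cpd18 as skin-negative. The labels name no dose, so Cpd2 and Cpd1 are set side by side here without knowing whether their doses matched.

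Collagen chains fold in threes into a triple helix. Fibrillar collagens of types I, III and V, made by fibroblasts, assemble into the banded fibres of the dermis, and fibril-associated collagens such as types XII and XIV coat those fibres. Type IV collagen forms the sheet of every basement membrane, under the epidermis and around vessels, muscle fibres, nerves and fat cells. At the junction of epidermis and dermis, type XVII collagen spans the membrane of the basal keratinocyte in the hemidesmosome, and type VII collagen forms the anchoring fibrils that tie the basement membrane to the dermis below. Loss of type VII or type XVII collagen causes skin blistering.

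Values are log2 intensities, 1 array per mouse, and every fold change is a log2 difference from the limma fit of its own study. Probesets were tested where their average over all 48 mice was at or above log2 2.93, the 25th percentile of the array, and 28789 probesets passed. Of the collagens, 49 of 56 probesets and 35 of 41 genes passed. The 7 probesets below that level were both of Col19a1 and those of Col9a1, Col24a1, Col2a1, Col10a1 and Col6a4, several of which are cartilage genes. A probeset was called at a Benjamini-Hochberg adjusted p under 0.05 over all tested probesets. In these bulk samples, fewer cells of a type and less RNA per cell cannot be told apart.

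Several cell type markers differed between mice, and p-values measure only the spread between these mice. The mean log2 level of 20 skeletal muscle markers ran from 5.66 to 11.87 among Cpd2 mice of Study 1, against 10.08 to 12.15 in their vehicle group, and 4 of the 8 Cpd2 mice, called muscle-poor here, lay below every vehicle mouse. Vehicle replicate 4 of Study 1 was also the lowest vehicle mouse in muscle markers and the lowest in endothelial markers (log2 7.52). Position genes of the Hox family record the body region of skin. In Study 1 they averaged log2 7.25 in Cpd1 mice, 5.00 in Cpd2 mice and 5.23 in vehicle mice. Cpd1 mice (6.93 to 7.45) overlapped neither group. The effect of Cpd1 against vehicle and the body region of the sample therefore cannot be told apart. The same holds for the difference between Cpd2 and Cpd1. The same genes averaged log2 6.90 to 7.41 in the 6 groups of Studies 2 and 4, so that wherever the Cpd2 effect of Study 1 is set against that of Study 2, study and body region cannot be told apart either. Markers of the growing hair follicle varied widely within groups. Of 9 fibroblast markers none was called against vehicle except Pdgfra in Cpd6 mice of Study 4 (−0.43), and Fap was called lower for Cpd2 against Cpd1 (−0.31).

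Each comparison asks which collagens differed between mice given a compound and mice given vehicle, with the skin-positive compounds set beside the skin-negative ones. Most collagen probesets passed no test, and the ones that did were chains of the epidermal junction, higher, and chains of types IV, V, VI, XII and XIV, lower, with types I and III lower under Cpd1. With Cpd2 in Study 1, 9 of 49 probesets were called (18.4%), beside 13.1% of all tested probesets. The 4 called higher are set against 7.09% of all probesets called higher, and the 5 called lower against 6.00%. The median log2 fold change was −0.15 over the collagens and 0.04 over all tested probesets. With Cpd1, 2 were called, both lower, beside 0.327% of all probesets called and 0.0799% called lower.

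With Cpd2 in Study 2 no collagen probeset was called by limma, beside 0.129% of all probesets called. None was called by the methods' analysis of variance with the same adjustment, named the methods' own test here. The methods themselves used an unadjusted p under 0.01 and a fold change over 1.2, named the methods' threshold here. An unadjusted p under 0.05 was reached by 9, a looser cut for which no share of all probesets is given here. With Cpd6, 2 of 49 were called in Study 2, both lower, beside 0.379% of all probesets called and 0.288% called lower. In Study 4, 1 was called higher and 2 lower with Cpd6, beside 10.7% of all probesets called, 4.56% higher and 6.17% lower. The share of collagen probesets called there was 6.12%. With Cpd18 limma called 0 of 49, beside 0.00347% of all probesets called, and the methods' own test also called 0. At the looser cut, an unadjusted p under 0.05, there were 4 of 49.

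By class, the calls with Cpd2 in Study 1 fell on 3 higher and 2 lower of 13 basement membrane probesets, 1 higher of 5 transmembrane, 1 lower of 14 fibrillar and 2 lower of 10 microfibrillar or network-forming probesets. None of the 7 fibril-associated probesets was called there.

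**Figure D1:**
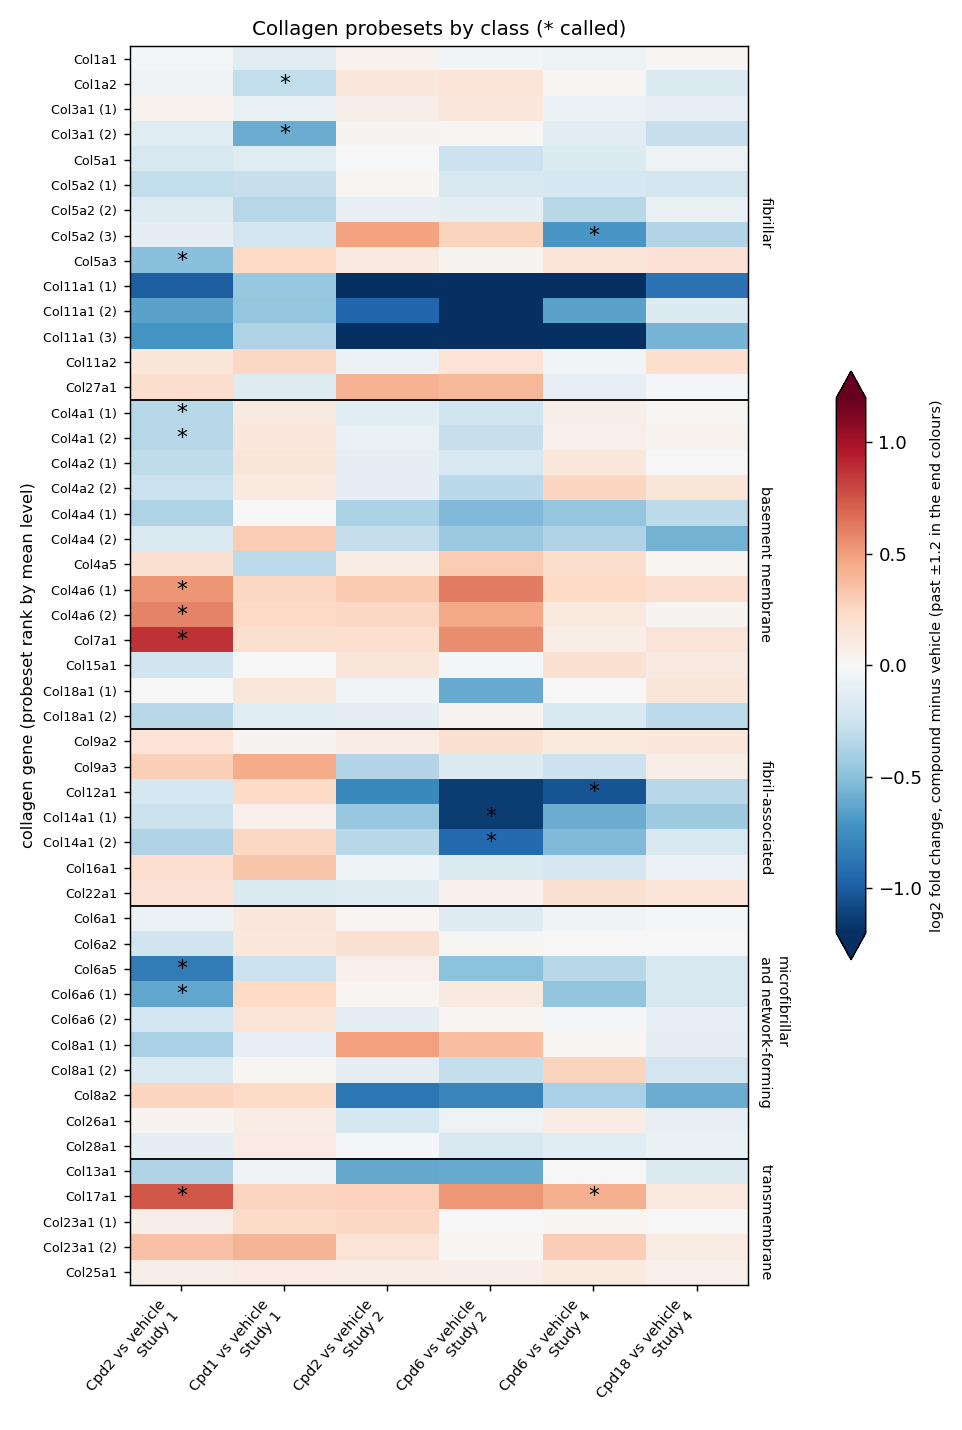
Log2 fold change against vehicle (colour scale) of the 49 tested collagen probesets (rows, by class, with the probeset rank by mean level in brackets) in the 6 comparisons with vehicle (columns), stars marking called probesets. The 9 stars of the Cpd2 column of Study 1 fall on Col7a1, Col17a1, Col4a6, Col4a1, Col5a3, Col6a5 and Col6a6, whereas the Cpd18 column has none.

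The junction collagens gave the clearest change. Col7a1, the anchoring fibril collagen, and Col17a1, the hemidesmosome collagen, were the only collagen probesets for which every Cpd2 mouse of Study 1 lay above every vehicle mouse, beside 1.49% of all tested probesets (none lay wholly below, beside 0.417%). Both chains that make the epidermal form of type IV collagen together, Col4a5 and Col4a6, were followed with them. The promoters of Col7a1, Col17a1, Col4a6 and Col4a5 are shown, although Col4a5 was not called against vehicle in any study. RefSeq windows of GRCm38.p6 were found for 33 of the 41 collagen genes, and each sequence below is the 250 bases before the gene's start, at chr9:108953336-108953585 on the plus strand for Col7a1, chr19:47692043-47692292 on the minus strand for Col17a1, chrX:141474077-141474326 on the minus strand for Col4a6 and chrX:141475169-141475418 on the plus strand for Col4a5. Capitals mark matches on either strand to TATAAA (the TATA box), CCAAT (the CAAT box), GGGCGG (the GC box) or TGANTCA (the AP-1 site).
Col7a1: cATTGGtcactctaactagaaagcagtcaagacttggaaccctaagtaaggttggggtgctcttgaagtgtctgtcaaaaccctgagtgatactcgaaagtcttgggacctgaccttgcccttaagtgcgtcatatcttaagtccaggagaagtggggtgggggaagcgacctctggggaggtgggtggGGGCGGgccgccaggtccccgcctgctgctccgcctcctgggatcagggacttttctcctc
Col17a1: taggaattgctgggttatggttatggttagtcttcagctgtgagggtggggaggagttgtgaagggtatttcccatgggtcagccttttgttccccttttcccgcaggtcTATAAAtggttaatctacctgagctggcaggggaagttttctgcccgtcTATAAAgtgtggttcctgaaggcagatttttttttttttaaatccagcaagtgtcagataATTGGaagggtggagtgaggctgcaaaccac
Col4a6: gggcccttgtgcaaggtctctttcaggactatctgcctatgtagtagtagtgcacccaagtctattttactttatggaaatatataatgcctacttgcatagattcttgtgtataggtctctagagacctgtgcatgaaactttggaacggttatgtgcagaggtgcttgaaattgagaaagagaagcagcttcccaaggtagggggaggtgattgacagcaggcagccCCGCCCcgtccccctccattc
Col4a5: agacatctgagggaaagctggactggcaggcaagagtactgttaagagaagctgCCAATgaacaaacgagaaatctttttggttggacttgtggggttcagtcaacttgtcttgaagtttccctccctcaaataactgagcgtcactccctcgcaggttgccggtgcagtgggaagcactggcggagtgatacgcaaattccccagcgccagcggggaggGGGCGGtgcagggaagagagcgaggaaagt
These 4 windows are not alike in letters. Col17a1 held TATAAA at 2 places, a motif found in 12.4% of all 32851 RefSeq windows of that length, and none of the other 3 windows held it. CCAAT stood in the windows of Col7a1, Col17a1 and Col4a5 (33.8% of all windows) and GGGCGG in those of Col7a1, Col4a6 and Col4a5 (32.7%). TGANTCA stood in none of the 4 (6.75%). Col4a6 and Col4a5 lie head to head on the X chromosome, with 1343 bases between the 2 starts. A match is a description of the letters, and no binding was measured.

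Col7a1 had a lowest, median and highest log2 intensity of 7.58, 8.11 and 8.18 in Cpd2 mice of Study 1, against 6.82, 7.10 and 7.49 in vehicle mice. No Cpd2 mouse reached down to the vehicle range. Col7a1 rose by a log2 fold change of 0.86 ± 0.12 (SE, 8 mice each), or 1.82-fold, with a limma adjusted p of 1.93e-05. Cpd1 mice ran from 7.14 to 7.63, inside and just above the vehicle range, with a log2 fold change of 0.19 ± 0.12 (adjusted p 0.51). Set directly against Cpd1, Cpd2 was higher by a log2 difference of 0.68 ± 0.12 (adjusted p 0.00045), and only the lowest Cpd2 mouse overlapped the Cpd1 group.

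In Study 2 the same gene was less clear. Col7a1 had log2 intensities of 7.31, 7.50, 7.38 and 7.99 in Cpd2 mice and 7.94, 8.09, 7.64 and 7.95 in Cpd6 mice, against 7.54, 7.39, 7.54 and 6.90 in vehicle mice. All Cpd6 mice lay above all vehicle mice, whereas 3 of the 4 Cpd2 mice lay within the vehicle range. Neither log2 fold change was called, at 0.20 ± 0.18 for Cpd2 (adjusted p 0.88) and 0.56 ± 0.18 for Cpd6 (adjusted p 0.20). The effect of Cpd2 was larger in Study 1 than in Study 2 by a log2 difference of 0.66 ± 0.21, which missed the threshold in the test of that difference (adjusted p 0.092). In Study 4 Col7a1 had log2 intensities of 8.56, 8.85, 8.78 and 8.53 in Cpd6 mice and 8.77, 9.02, 8.39 and 8.85 in Cpd18 mice, against 8.64, 8.87, 8.27 and 8.62 in vehicle mice. All 3 groups overlapped there, and the Cpd6 change of 0.08 had a 95% interval from −0.22 to 0.38 on the log2 scale.

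Col17a1 had a lowest, median and highest log2 intensity of 9.87, 10.07 and 10.30 in Cpd2 mice of Study 1, against 8.81, 9.34 and 9.84 in vehicle mice. The groups came close but did not overlap, and the log2 fold change was 0.75 ± 0.12 (1.68-fold, adjusted p 0.00018). Cpd1 mice lay between, from 9.14 to 9.86, at a log2 fold change of 0.26 (adjusted p 0.38), and Cpd2 was above Cpd1 in all mice by 0.49 ± 0.12 (adjusted p 0.0083). Without the 4 muscle-poor Cpd2 mice that difference was 0.41 and no longer called (adjusted p 0.13).

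Col17a1 was also the one collagen called higher with Cpd6. In Study 4 its log2 intensities were 10.38, 10.47, 10.59 and 10.48 in Cpd6 mice and 10.23, 10.14, 10.26 and 10.05 in Cpd18 mice, against 10.28, 10.08, 9.94 and 9.92 in vehicle mice. Every Cpd6 mouse lay above every mouse of both other groups. Against vehicle it rose by 0.43 ± 0.08 on the log2 scale (adjusted p 0.0083), and that of Cpd18 was 0.12 ± 0.08 (adjusted p 0.75). Cpd6 and Cpd18, given in the same study, differed by 0.31 on the log2 scale with an unadjusted 95% interval from 0.13 to 0.49, and the difference was not called after adjustment (adjusted p 0.15). In Study 2 Col17a1 log2 intensities were 9.99, 9.64, 9.48 and 10.38 in Cpd2 mice and 9.93, 10.42, 10.15 and 9.95 in Cpd6 mice, against 9.98, 9.75, 9.60 and 9.05 in vehicle mice, the groups overlapped, and the log2 fold changes of 0.28 and 0.52 were not called (adjusted p 0.85 and 0.32). The call in Study 4 was lost in the fit over all 48 arrays, in the methods' own test and with the hair follicle marker level as a covariate (log2 fold change 0.39, adjusted p 0.089). At the methods' threshold, which has no adjustment, it was kept.

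Col4a6 has 2 probesets, numbered here and below by mean level, and both rose with Cpd2 in Study 1. Probeset 1 had a lowest, median and highest log2 intensity of 8.07, 8.25 and 8.87 in Cpd2 mice, against 7.57, 7.79 and 8.24 in vehicle mice. The ranges overlapped at their ends. The log2 fold changes were 0.53 ± 0.12 (adjusted p 0.0051) and 0.59 ± 0.12 (adjusted p 0.0018) for the 2 probesets. In Study 2, probeset 1 had log2 intensities of 8.74, 8.89, 8.62 and 8.79 in Cpd6 mice, all above the 8.28, 8.39, 7.96 and 7.91 of vehicle mice, at a log2 fold change of 0.63 ± 0.14 that missed the threshold (adjusted p 0.071). Probeset 2 gave 0.46 there (adjusted p 0.43). In the other comparisons with vehicle neither Col4a6 probeset was called. Among all 13 basement membrane probesets the highest log2 fold change was 0.31 with Cpd2 in Study 2 and 0.26 with Cpd6 in Study 4. It was 0.31 with Cpd1 in Study 1 and 0.19 with Cpd18 in Study 4.

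Its partner chain Col4a5 did not pass the test against vehicle in any study. In Study 1 its lowest, median and highest log2 intensities were 7.86, 8.10 and 8.41 in Cpd2 mice and 7.46, 7.63 and 7.83 in Cpd1 mice, against 7.60, 7.96 and 8.28 in vehicle mice. Cpd2 mice lay wholly above Cpd1 mice, with a log2 difference of 0.50 ± 0.09 (adjusted p 0.00054), while the vehicle group lay between and overlapped both. The log2 fold change of Cpd2 against vehicle was 0.19 (adjusted p 0.18) and that of Cpd1 was −0.31 (adjusted p 0.12).

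The 4 calls of Col7a1, Col17a1 and Col4a6 with Cpd2 in Study 1 held on leaving out any 1 mouse and in every other setting that was run. With the 4 muscle-poor Cpd2 mice left out, the log2 fold changes were 0.71 for Col7a1 (adjusted p 0.0085), 0.67 for Col17a1 (adjusted p 0.021), and 0.64 and 0.59 for Col4a6. Keratinocyte markers were higher in the same mice. Differentiated keratinocyte markers averaged log2 12.05 (11.92 to 12.19) in Cpd2 mice, against 11.56 (11.30 to 11.85) in vehicle mice, with 7 of 9 genes called higher, and basal keratinocyte markers averaged log2 11.03 (10.94 to 11.18) in Cpd2 mice, against 10.86 (10.58 to 10.99) in vehicle mice, with 2 of 5 called higher. In Study 4 basal keratinocyte markers averaged log2 11.33 (11.32 to 11.35) in Cpd6 mice, against 11.12 (11.07 to 11.19) in vehicle mice, with 2 of 5 called higher. Cpd18 mice lay between on average, at 11.21 (11.15 to 11.27), with 0 of 5 called. Differentiated keratinocyte markers averaged log2 12.04 in Cpd6 mice, 12.03 in Cpd18 mice and 12.03 in vehicle mice of that study, although 3 of 9 were called higher with Cpd6. The part of keratinocyte content in the junction collagens was not tested.

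**Figure D2:**
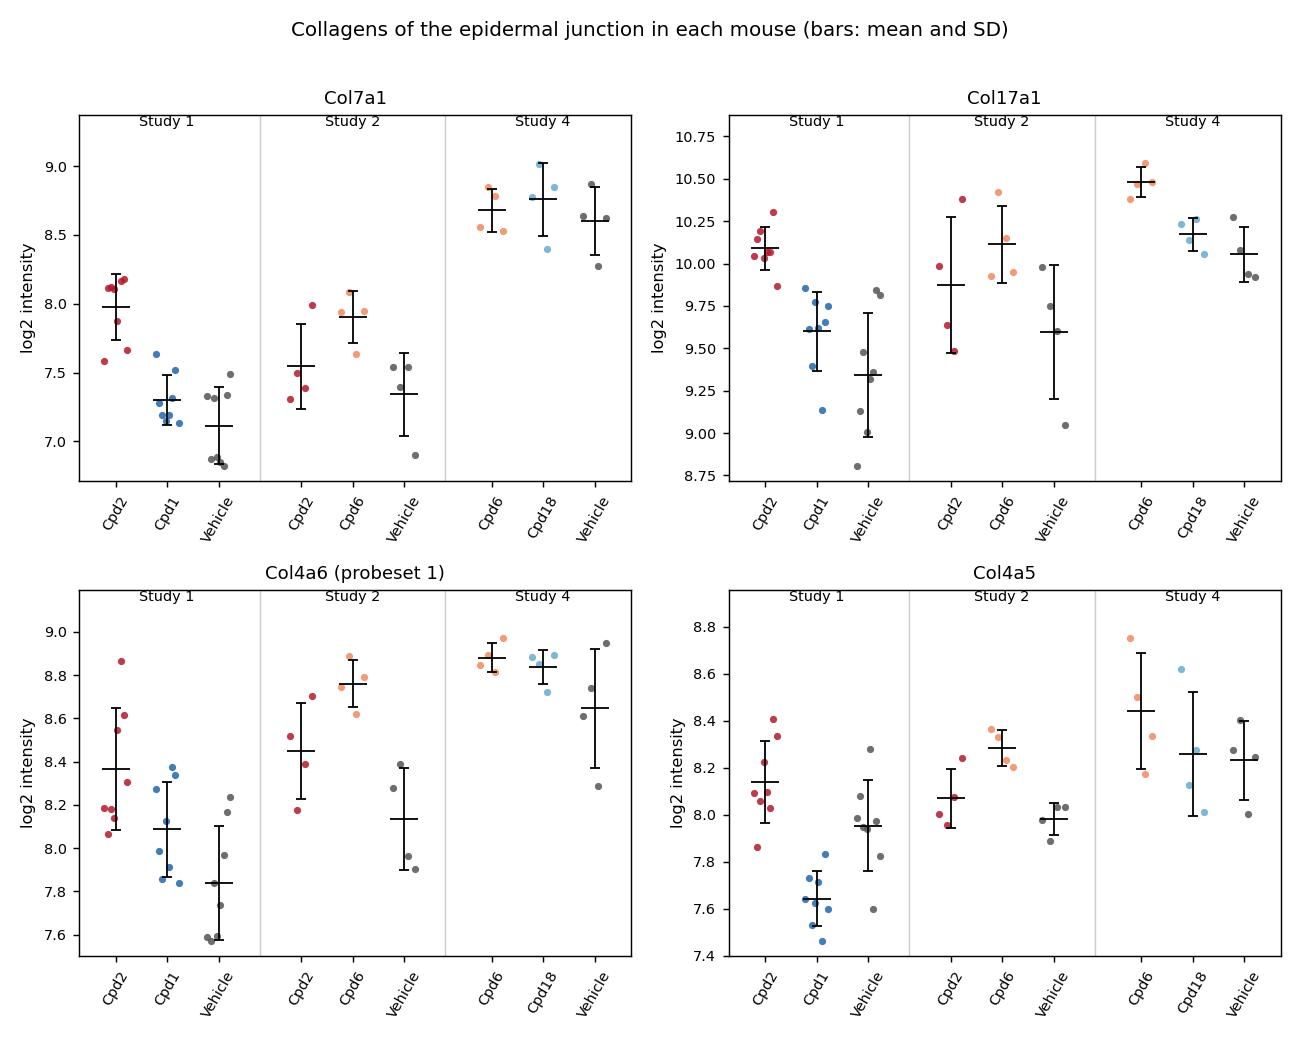
Log2 intensity (vertical axes) of Col7a1, Col17a1, Col4a6 probeset 1 and Col4a5 in each mouse (points) of the 9 groups, with the group mean and SD as bars. The 8 Cpd2 mice of Study 1 lie above all 8 vehicle mice for Col7a1 and Col17a1, and the 4 Cpd6 mice of Study 4 lie above all 4 vehicle mice for Col17a1 but not for Col7a1.

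The widespread type IV chains went the other way. Col4a1 and Col4a2 pair in nearly every basement membrane and are transcribed head to head, with 21 bases between their starts on mouse chromosome 8. Col4a1 probeset 1 had a lowest, median and highest log2 intensity of 11.17, 11.47 and 11.91 in Cpd2 mice of Study 1, against 11.39, 11.82 and 12.10 in vehicle mice. The groups overlapped over most of their range. Both Col4a1 probesets fell by 0.34 on the log2 scale (SE 0.11, adjusted p 0.033 and 0.040). Col4a2 probeset 1 had 11.03, 11.33 and 11.60 in Cpd2 mice, against 11.03, 11.61 and 11.998 in vehicle mice, a log2 fold change of −0.31 ± 0.11 that missed the threshold (adjusted p 0.058).

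Against Cpd1 both chains were lower with Cpd2. Col4a1 differed by −0.45 and −0.47 on the log2 scale for its 2 probesets (adjusted p 0.0057 and 0.0051) and Col4a2 probeset 1 by −0.46 (adjusted p 0.0052). Without the muscle-poor mice only Col4a1 probeset 2 was still called, at −0.53 (adjusted p 0.021), against −0.39 for its probeset 1 (adjusted p 0.060) and −0.38 for Col4a2 (adjusted p 0.083). In Study 2 the log2 fold changes of Col4a1 probeset 1 were −0.14 for Cpd2 and −0.23 for Cpd6, and those of Col4a2 probeset 1 were −0.11 and −0.20, none of them called. In Study 4 the Cpd6 values were 0.07 for Col4a1 and 0.13 for Col4a2, also not called. 

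The Col4a1 calls were fragile. That of probeset 1 was lost on leaving out any 1 of Cpd2 replicates 1, 2, 4 and 7 or vehicle replicates 1, 2, 3 and 6, with log2 fold changes between −0.41 and −0.30 and adjusted p up to 0.083, and that of probeset 2 on leaving out any 1 of 11 of the 16 mice (up to 0.096). Without the 4 muscle-poor Cpd2 mice the values were −0.28 and −0.40 (adjusted p 0.23 and 0.084). Both calls were also lost in the methods' own test, and that of probeset 2 with no filter and with a replicate block. Endothelial markers, whose cells lie on type IV collagen, averaged log2 8.11 (7.77 to 8.37) in Cpd2 mice of Study 1, against 8.45 (7.52 to 8.73) in vehicle mice, with 3 of 12 genes called lower. In Study 4 they averaged 8.58 (8.53 to 8.60) in Cpd6 mice, against 8.24 (7.99 to 8.49) in vehicle mice, with 7 of 12 called higher, while Col4a1 and Col4a2 were not called. The part of vessels or muscle in the type IV values was not tested.

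Of the other basement membrane chains none passed. Col4a4, a chain best known from kidney, had log2 fold changes for probeset 1 of −0.37 in Study 1 (adjusted p 0.10) and −0.38 in Study 2 (adjusted p 0.69) under Cpd2, and of −0.53 in Study 2 (adjusted p 0.23) and −0.46 in Study 4 (adjusted p 0.11) under Cpd6. Col15a1, which sits at the outer face of vessel and muscle basement membranes, had log2 fold changes of −0.24 with Cpd2 in Study 1 (adjusted p 0.13) and 0.18 with Cpd6 in Study 4 (adjusted p 0.33). Col18a1, the source of the fragment endostatin, gave −0.01 for probeset 1 and −0.33 for probeset 2 with Cpd2 in Study 1 (adjusted p 0.99 and 0.23).

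**Figure D3:**
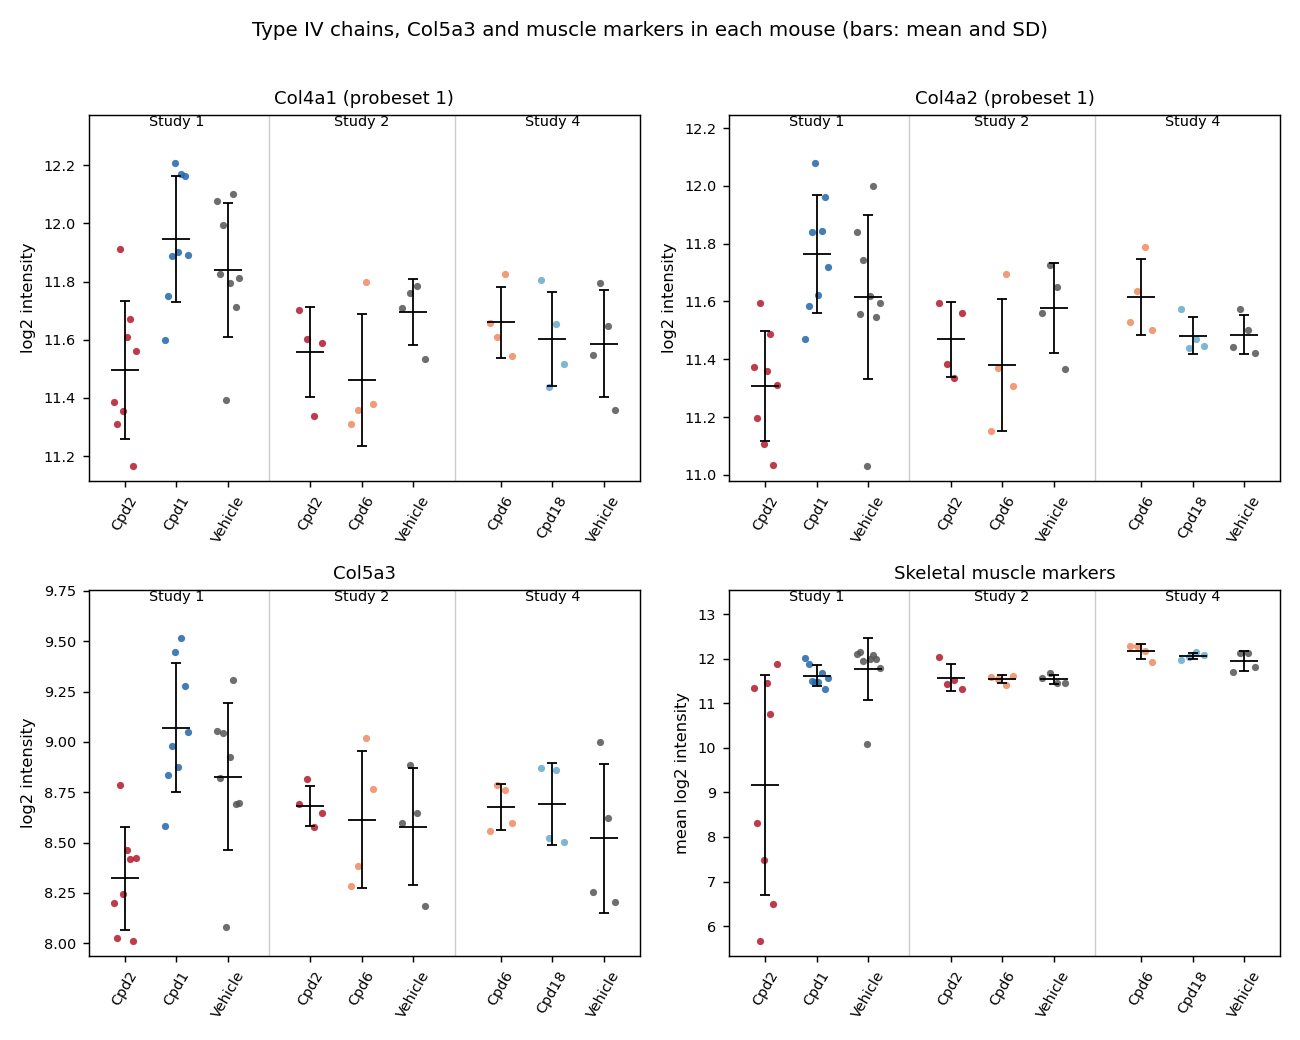
Log2 intensity of Col4a1 and Col4a2 (probeset 1 of each) and Col5a3, and the mean log2 intensity of 20 skeletal muscle markers, in each mouse (points) of the 9 groups, with the group mean and SD as bars. In Study 1 the Cpd2 means of the 3 collagens lie below the vehicle means, although the highest Cpd2 mouse for Col4a1 (11.91) is above most vehicle mice, vehicle replicate 4 is the low vehicle point of Col4a2 and Col5a3, and muscle markers spread from 5.66 to 11.87 in Cpd2 mice.

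Of 14 fibrillar probesets, 1 was called with Cpd2 in Study 1 and 1 with Cpd6 in Study 4, both lower, and 0 with either compound in Study 2. The shares of all probesets are given above. With Cpd6, 12 log2 fold changes were negative and 2 positive in Study 4 (median −0.15, beside 0.01 over all tested probesets). In Study 2, 7 were negative and 7 positive with Cpd6. Col1a1, the main chain of type I collagen, had a lowest, median and highest log2 intensity of 13.18, 13.23 and 13.43 in Cpd2 mice of Study 1, against 13.17, 13.30 and 13.35 in vehicle mice. The groups coincided, and over the 6 comparisons with vehicle its log2 fold change ran from −0.13 to 0.04 without a call. In Study 1 the Cpd2 value was −0.02 ± 0.05. Col3a1 probeset 1 gave 0.04 with Cpd2 (adjusted p 0.63) and Col5a1, the chain that starts type I fibrils, gave −0.19 (adjusted p 0.31).

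With Cpd1 2 fibrillar chains fell. Col1a2, the second chain of type I collagen, had a lowest, median and highest log2 intensity of 11.997, 12.37 and 12.53 in Cpd1 mice, against 12.52, 12.61 and 12.73 in vehicle mice. Only the top of the Cpd1 group reached the vehicle range, and the log2 fold change was −0.30 ± 0.06 (adjusted p 0.039). Col3a1, the type III chain, was called on probeset 2 alone, with 10.76, 11.17 and 11.68 in Cpd1 mice, against 11.59, 11.75 and 11.97 in vehicle mice, a log2 fold change of −0.60 ± 0.11 (adjusted p 0.014), a call lost in the methods' own test. Probeset 1 gave −0.09 (adjusted p 0.46), so the 2 probesets of Col3a1 disagree in size.

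Cpd2 stood above Cpd1 for both, by 0.25 for Col1a2 (adjusted p 0.0091) and 0.45 for Col3a1 probeset 2 (adjusted p 0.0073), the first of which was not called without the muscle-poor mice (0.25, adjusted p 0.064). The Col1a2 call with Cpd1 was lost with array medians set equal, with quantile normalization, with a replicate block, in the methods' own test, and on leaving out any 1 of Cpd1 replicates 1, 3, 4, 6 and 7 or vehicle replicates 1, 2, 3, 5 and 7, with log2 fold changes from −0.33 to −0.25. At the methods' threshold, which has no adjustment, the Col1a2 and Col3a1 calls of Cpd1 against vehicle were both kept. The Hox position genes differ between these groups as given above.

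Col5a3, a less common chain of type V collagen, was the fibrillar gene called with Cpd2 in Study 1. Its lowest, median and highest log2 intensities were 8.01, 8.33 and 8.79 in Cpd2 mice and 8.58, 9.01 and 9.51 in Cpd1 mice, against 8.08, 8.87 and 9.31 in vehicle mice. The low vehicle value is replicate 4, the vehicle mouse poor in muscle markers, and the next vehicle mouse stood at 8.69. Col5a3 fell by 0.51 on the log2 scale (SE 0.15) against vehicle (adjusted p 0.024) and by 0.75 against Cpd1 (adjusted p 0.0014). Without the 4 muscle-poor Cpd2 mice the first was −0.45 and no longer called (adjusted p 0.20) and the second was −0.69 and still called (adjusted p 0.031). Against vehicle the call also went when replicate 2 or 7 of Cpd2, or 1 or 6 of vehicle, was left out, with values from −0.61 to −0.44 over all 16 mice left out in turn, and it was lost in the methods' own test. In Study 2 Col5a3 gave 0.10 with Cpd2, and the difference between the studies of −0.61 was not called (adjusted p 0.20).

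Col5a2, another type V chain, was called lower with Cpd6 in Study 4 on 1 of 3 probesets. Probeset 3 had log2 intensities of 4.74, 4.39, 4.10 and 4.71 in Cpd6 mice, against 5.14, 5.38, 4.99 and 5.23 in vehicle mice. The groups did not overlap, and the log2 fold change was −0.70 ± 0.16 (adjusted p 0.016). The call was lost in 1 fit over all 48 arrays and in the methods' own test. Probesets 1 and 2 gave −0.21 and −0.33 (adjusted p 0.30 and 0.15). In Study 2 probeset 3 ran the other way, at 0.26 with Cpd6 and 0.49 with Cpd2, neither called.

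**Figure D4:**
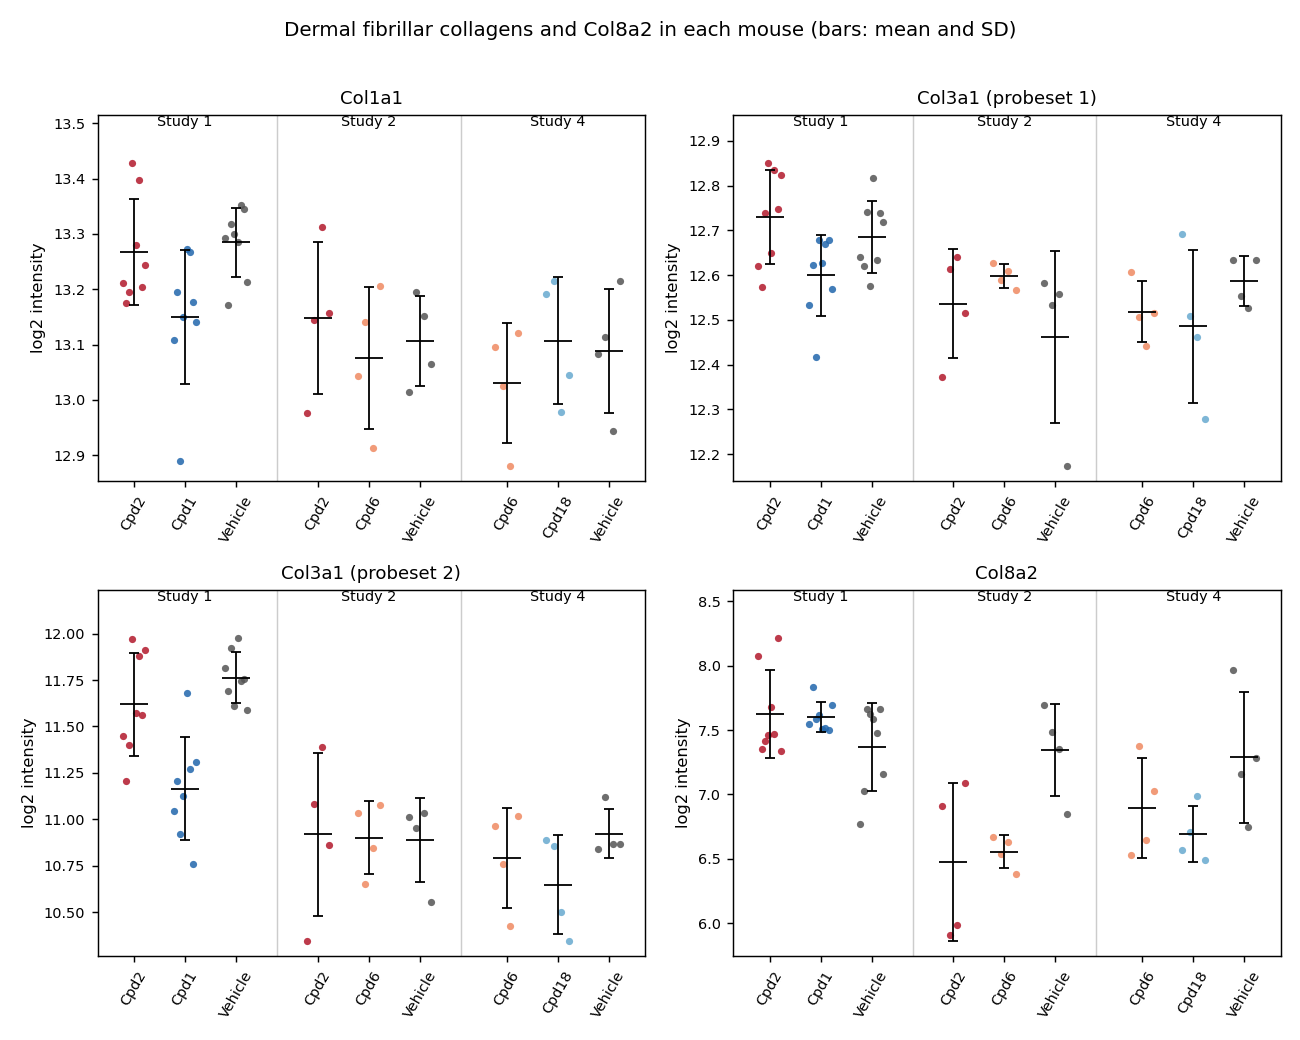
Log2 intensity of Col1a1, both probesets of Col3a1, and Col8a2 in each mouse (points) of the 9 groups, with the group mean and SD as bars. Col1a1 overlaps between all groups of a study, Cpd1 mice are low for Col3a1 probeset 2 but not for probeset 1, and the Col8a2 mean of Cpd2 mice lies below that of vehicle mice in Study 2 and above it in Study 1, with overlap in both.

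The calls among the fibril-associated collagens against vehicle came with Cpd6. Col14a1, which coats type I fibrils and regulates their width, fell in Study 2 on both probesets. Probeset 1 had log2 intensities of 7.43, 6.58, 7.20 and 7.20 in Cpd6 mice and 7.99, 8.05, 7.34 and 7.77 in Cpd2 mice, against 8.48, 8.26, 8.52 and 7.71 in vehicle mice. All Cpd6 mice lay below all vehicle mice, and 3 of the 4 Cpd2 mice overlapped the vehicle range. The log2 fold changes with Cpd6 were −1.14 ± 0.22 (adjusted p 0.035) for probeset 1 and −0.94 ± 0.18 (adjusted p 0.037) for probeset 2. Those calls were lost on leaving out any 1 of 5 of the 8 mice for probeset 1 (Cpd6 replicates 2, 3 and 4 and vehicle replicates 2 and 3) and any 1 of 6 for probeset 2 (also Cpd6 replicate 1), with values from −1.32 to −0.96 and from −1.02 to −0.83 over all mice.

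In Study 4 Col14a1 probeset 1 had log2 intensities of 7.83, 6.15, 7.23 and 7.19 in Cpd6 mice and 7.70, 7.08, 7.42 and 6.87 in Cpd18 mice, against 7.71, 7.66, 7.60 and 7.79 in vehicle mice. Cpd6 replicate 1 stood above the whole vehicle group and the other 3 below it. At −0.59 ± 0.26 on the log2 scale the change was not called (adjusted p 0.16), and the Cpd6 effects of the 2 studies differed by −0.55 ± 0.38 (adjusted p 0.83). For Cpd2 in Study 1 probeset 1 gave −0.26 (adjusted p 0.38), and against Cpd1 only probeset 2 was called, at −0.61 ± 0.19 (adjusted p 0.026), lost when Cpd2 replicate 5 or Cpd1 replicate 4 or 6 was left out (−0.68 to −0.47 over all mice left out in turn).

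Col12a1, a fibril-associated collagen of tissues under tension, had log2 intensities of 4.89, 5.14, 5.05 and 4.51 in Cpd6 mice of Study 4 and 5.21, 6.10, 5.22 and 5.84 in Cpd18 mice, against 6.36, 5.32, 5.65 and 6.38 in vehicle mice. Every Cpd6 mouse was below every mouse of the other 2 groups, and the log2 fold change was −1.03 ± 0.26 against vehicle (adjusted p 0.022) and −0.70 ± 0.26 against Cpd18, which was not called (adjusted p 0.29). In Study 2 it had 4.68, 5.57, 5.17 and 5.35 in Cpd6 mice, against 5.95, 5.90, 6.61 and 6.87 in vehicle mice, again with no overlap, at −1.14 ± 0.25 without a call (adjusted p 0.074). With Cpd2 the values were −0.77 in Study 2 (adjusted p 0.44) and −0.21 in Study 1 (adjusted p 0.70). The Study 4 call was lost on leaving out Cpd6 replicate 1 or 4 or vehicle replicate 1 or 4, with log2 fold changes from −1.23 to −0.88 over all mice left out in turn.

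Hair follicle markers were low in all Cpd6 mice and in some vehicle mice. The mean log2 level of 15 growing hair follicle markers was 3.97, 4.13, 5.84 and 4.07 in Cpd6 mice of Study 2, against 4.34, 8.26, 9.79 and 10.81 in vehicle mice, and 3.88, 4.0, 4.18 and 5.87 in Cpd6 mice of Study 4, against 10.19, 3.89, 9.15 and 10.29 in vehicle mice. None of the 15 was called by limma with Cpd6 in Study 2, where 14 had an unadjusted p under 0.05, and 3 were called lower in Study 4, with median log2 fold changes of −4.33 and −4.48. In each study 1 vehicle mouse was as low as the Cpd6 mice. In those 2 vehicle mice, replicate 1 of Study 2 and replicate 2 of Study 4, Col12a1 stood at log2 5.95 and 5.32. Col14a1 probeset 1 stood at 8.48 and 7.66 in them, which is 1 mouse in each study. With the hair marker level as a covariate no Col14a1 or Col12a1 call was left: Col14a1 gave −1.31 and −0.93 in Study 2 (adjusted p 0.18 and 0.34), and Col12a1 gave −0.59 in Study 4 (adjusted p 0.30). The 4 Study 2 vehicle mice, in the order above, had 8.48, 8.26, 8.52 and 7.71 for Col14a1 probeset 1. The part of hair follicles in these collagens was not tested further.

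Col11a1, a minor fibrillar chain best known from cartilage, was named after its values were seen. In Study 2 probeset 1 had log2 intensities of 2.72, 2.96, 2.74 and 2.76 in Cpd2 mice and 2.38, 3.49, 3.58 and 2.45 in Cpd6 mice, against 3.01, 4.83, 5.25 and 6.11 in vehicle mice. The low vehicle mouse is again replicate 1, which is low in hair markers. In Study 4 it had 3.00, 3.02, 2.56 and 3.00 in Cpd6 mice and 2.55, 6.24, 2.88 and 3.84 in Cpd18 mice, against 5.41, 3.55, 3.73 and 6.36 in vehicle mice. Its log2 fold changes were −2.0 for Cpd2 in Study 2, −1.82 for Cpd6 in that study and −1.86 for Cpd6 in Study 4, none of them called (adjusted p 0.22, 0.13 and 0.096). In Study 1 the 2 highest vehicle mice, replicates 1 and 4 at log2 7.70 and 6.76, were also the 2 highest vehicle mice in hair markers, at 8.43 and 10.89. Cpd18 replicate 3 of Study 4 had 2.88 for Col11a1 with hair markers at 8.62. The part of hair follicles in the Col11a1 values was not tested.

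**Figure D5:**
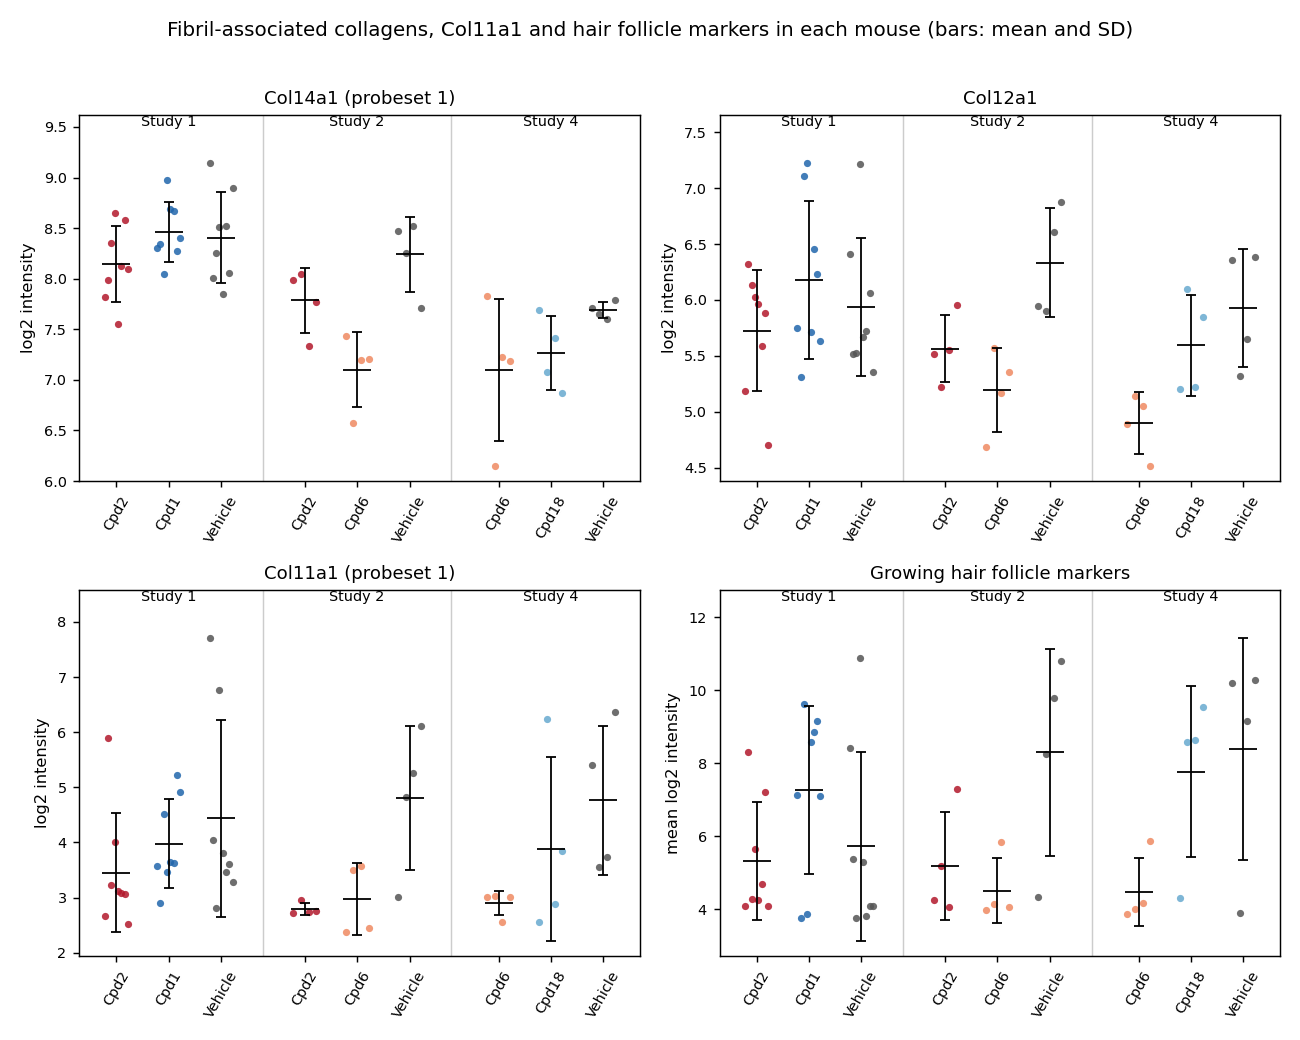
Log2 intensity of Col14a1 (probeset 1), Col12a1 and Col11a1 (probeset 1), and the mean log2 intensity of 15 growing hair follicle markers, in each mouse (points) of the 9 groups, with the group mean and SD as bars. The Cpd6 mice of both studies are below all vehicle mice for Col12a1, and 3 of 4 vehicle mice in each of these studies are high in hair markers.

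Members whose groups did not overlap in the 4-mouse studies were counted for a fuller picture. With Cpd6 in Study 2, 3 probesets lay wholly above vehicle (Col7a1, Col4a5 and Col4a6 probeset 1), beside 4.31% of all probesets, and 6 wholly below (both of Col14a1, Col12a1, Col13a1, Col8a2 and Col4a2 probeset 2), beside 2.52%. In Study 4, 2 lay above with Cpd6 (Col17a1 and Col22a1), beside 8.82%, and 4 below (Col12a1, Col5a2 probeset 3, Col11a1 probeset 1 and Col6a6 probeset 1), beside 10.1%. Cpd2 gave 1 above in Study 2 (Col5a2 probeset 3), beside 1.89%, and 2 below (Col11a1 probeset 1 and Col13a1), beside 1.45%. Col12a1 was the only one of these wholly below vehicle with Cpd6 in both studies, and none lay wholly above in both. The share of all probesets wholly below or above in both studies was not counted, so this has no background to be read against. Col13a1, a transmembrane collagen named after its values were seen, had log2 fold changes of −0.62 with Cpd2 and −0.61 with Cpd6 in Study 2, not called (adjusted p 0.33 and 0.14).

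Type VI collagen, the beaded microfibril around cells and fibres, changed in its rarer chains. Col6a1 and Col6a2, 2 of the common chains, gave −0.07 and −0.24 on the log2 scale with Cpd2 in Study 1 (adjusted p 0.74 and 0.40) and between −0.16 and 0.18 with the other skin-positive treatments, without a call. Col6a5 had a lowest, median and highest log2 intensity of 3.98, 4.16 and 4.44 in Cpd2 mice of Study 1, against 4.23, 5.12 and 5.71 in vehicle mice. Only vehicle replicate 4, at 4.23, fell inside the Cpd2 range. Its fall of 0.84 on the log2 scale (SE 0.19, adjusted p 0.0029) held in all 16 fits that leave out 1 mouse, and the value was −0.89 without the 4 muscle-poor mice (adjusted p 0.042) and −0.81 with the muscle level as a covariate, which lost the call (adjusted p 0.056).

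Col6a6 probeset 1 had 3.45, 4.03 and 4.44 in Cpd2 mice and 4.56, 4.72 and 5.34 in Cpd1 mice, against 4.27, 4.75 and 4.88 in vehicle mice. The log2 fold change was −0.62 ± 0.15 against vehicle (adjusted p 0.0046) and −0.86 ± 0.15 against Cpd1, where no mice overlapped (adjusted p 0.00032). Probeset 2 gave −0.23 and −0.39 (adjusted p 0.34 and 0.063). Without the 4 muscle-poor mice the change of probeset 1 against vehicle was −0.51 and not called (adjusted p 0.11), and that against Cpd1 was −0.75 and called (adjusted p 0.018). In Study 2 Cpd2 gave 0.06 for Col6a5 and 0.03 for Col6a6 probeset 1, and the differences between the studies of −0.90 and −0.65 were not called (adjusted p 0.14 and 0.16).

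Col8a2, a short network-forming collagen best known from the cornea, was the 1 collagen whose Cpd2 effect differed between studies by the test of that difference. Its lowest, median and highest log2 intensities were 7.34, 7.47 and 8.21 in Cpd2 mice of Study 1, against 6.77, 7.53 and 7.67 in vehicle mice. In Study 2 they were 6.91, 5.91, 5.98 and 7.09 in Cpd2 mice and 6.67, 6.54, 6.63 and 6.38 in Cpd6 mice, against 7.70, 7.48, 7.35 and 6.85 in vehicle mice. The Cpd2 effect was 0.25 in Study 1 and −0.87 in Study 2 on the log2 scale, neither called alone, and differed by 1.13 ± 0.29 (95% interval 0.54 to 1.71, adjusted p 0.049), beside 0.726% of all probesets called in that test. The call sat at the threshold and was lost with no filter, with a replicate block and on leaving out any 1 of 15 of the 24 mice (0.94 to 1.33 over all mice left out in turn). No collagen was called by limma for a difference of the Cpd6 effect between Study 2 and Study 4, beside 0% of all probesets, and 4 of 49 had an unadjusted p under 0.05.

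The compounds were also set against each other. For Cpd2 against Cpd1 in Study 1 it is not known whether the doses matched, since the labels name none. The Hox position genes did not overlap between these groups, so compound and body region cannot be told apart. This comparison called 13 of 49 probesets (26.5%), beside 17.2% of all. Of these, 6 were higher, beside 8.99%, and 7 lower, beside 8.25%. The genes are those given above: Col7a1, Col17a1, Col4a5, Col4a6 probeset 2, Col1a2 and Col3a1 probeset 2 higher, and Col4a1, Col4a2, Col5a3, Col6a5, Col6a6 and Col14a1 lower. Those of Col4a6 probeset 2 (0.36, adjusted p 0.046) and Col6a5 (−0.59, adjusted p 0.030) were lost on leaving out any 1 of 12 and of 5 of the 16 mice, from 0.32 to 0.41 and from −0.66 to −0.49 over all mice. Cpd2 mice lay wholly above Cpd1 mice for 2 probesets (Col17a1 and Col4a5), beside 1.60%, and wholly below for 1 (Col6a6), beside 1.54%. Without the 4 muscle-poor Cpd2 mice 7 probesets were called, beside 4.62% of all probesets: Col7a1, Col4a5, Col3a1 probeset 2, Col4a1 probeset 2, Col5a3, Col6a6 probeset 1 and Col14a1 probeset 2. Cpd2 against Cpd6 in Study 2 called 0 collagens by limma, beside 0% of all probesets called, and 0 by the methods' own test. At the looser cut, an unadjusted p under 0.05, there were 5. Cpd6 against Cpd18 in Study 4 likewise called 0, beside 0.490% of all probesets called by limma, and 4 had an unadjusted p under 0.05.

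The proteins that fold, cross-link, bind and break down collagen were counted by 7 lists with 77 tested genes. With Cpd2 in Study 1, 8 rose and 7 fell, and with Cpd6 in Study 4, 12 fell and none rose, beside the shares of all probesets given above. With Cpd6 in Study 2, 1 fell. In those Cpd6 mice of Study 4, 7 of 9 macrophage and monocyte markers were called lower (mean log2 level 7.37, 7.19 to 7.55, in Cpd6 mice, against 8.13, 8.01 to 8.29, in vehicle mice), as were 5 of 5 melanocyte markers (4.87, 4.67 to 5.12, against 6.65, 5.34 to 7.68). Smooth muscle and pericyte markers were called higher for 4 of 9 genes (8.15, 8.06 to 8.26, against 7.91, 7.71 to 8.08). Cpd18 mice of that study averaged 7.46 (7.22 to 7.78) for macrophage and monocyte markers, near the Cpd6 level and wholly below the vehicle range. They averaged 8.16 (8.09 to 8.20) for smooth muscle and pericyte markers and 5.56 (4.88 to 6.36) for melanocyte markers. None of these markers was called with Cpd18. The part of these cells in the companion genes was not tested. By limma 0 of 77 were called with Cpd1, with Cpd18 and with Cpd2 in Study 2, where 23, 13 and 7 had an unadjusted p under 0.05. Set directly against Cpd18 in Study 4, Cpd6 gave 0 of 77 called by limma, and 7 had an unadjusted p under 0.05. The tests of the Cpd2 effect and of the Cpd6 effect between studies also called 0 of 77, with 10 and 2 at that looser cut.

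Of 15 laminins and other basement membrane proteins, 2 rose and 2 fell with Cpd2 in Study 1, and none rose and 2 fell with Cpd6 in Study 4. In Cpd2 mice of Study 1, Lamb3, a chain of the laminin that binds type VII collagen and the hemidesmosome, rose by a log2 fold change of 0.62 ± 0.10 (adjusted p 0.00016). Itgb4, the integrin chain of the hemidesmosome and one of the basal keratinocyte markers, rose by 0.62 ± 0.10 (adjusted p 0.00020), and by 0.42 ± 0.10 with Cpd6 in Study 4 (adjusted p 0.016). Lama1 rose by 0.85, whereas Lamb1, a laminin chain of vessels and dermis, fell by 0.57 and Fras1 fell by 0.91. Lamb1 also fell with Cpd6 in Study 2, by 0.61 (adjusted p 0.024), but the study picked it as a biomarker from these samples, so its direction is no independent evidence. In Study 4 Lama2 fell by 0.40 and Fras1 by 0.80 with Cpd6.

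Among the enzymes that build collagen, Plod2, a lysyl hydroxylase that sets up cross-links, fell by 0.89 on the log2 scale with Cpd2 in Study 1 (adjusted p 0.0044). P3h2, a prolyl 3-hydroxylase with type IV collagen among its substrates, rose by 0.41 (adjusted p 0.0030), and Adamts14, which trims procollagen, rose by 0.60 (adjusted p 0.00033). With Cpd6 in Study 4, Pcolce2 and Adamts3 fell by 0.29 and 0.86. None of the 5 lysyl oxidases that form cross-links was called by limma with any compound against vehicle, with at most 2 at an unadjusted p under 0.05 (Cpd6 in Study 4). Of the breakdown genes, Timp1, an inhibitor of matrix proteases, rose by 0.94 with Cpd2 in Study 1 (adjusted p 0.027), and Mmp2 and Ctsk fell by 0.42 and 0.59 with Cpd6 in Study 4.

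Collagen receptors moved in both directions with Cpd2 in Study 1. Itga2, the collagen receptor of keratinocytes, and Ddr1, a receptor kinase of epithelia, rose by 0.68 and 0.41 on the log2 scale (adjusted p 0.015 and 0.00031). Itga1 and Itga11, receptors of vessel and fibroblast cells, fell by 0.63 and 0.51 (adjusted p 0.010 and 0.014). Among the proteoglycans that sit on fibrils, Ogn and Omd fell by 0.75 and 0.67 with Cpd2 in Study 1, and Dcn and Omd by 0.31 and 0.64 with Cpd6 in Study 4. Of the other dermal proteins, Thbs2 rose by 0.38 with Cpd2 in Study 1, and Fn1, Postn and Vcan fell by 0.45, 0.39 and 0.62 with Cpd6 in Study 4.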

How the data were processed

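Skin RNA was measured on a custom Affymetrix array, 1 per mouse. The authors made the linear intensities with RMA (version not given in the sources used here), and the table was used as deposited. Groups were taken from the sample labels. Per the labels the tissue is dorsal skin, but the methods leave ventral skin possible. Of 38385 probesets, 24478 name 1 gene, 65 several and 13842 none. The base 2 logarithm was fitted in each study with limma 3.58.1 in R 4.3.3, 1 mean per group, with an intensity trend, and differences between studies in 1 fit over 48 arrays. The fit was tested on simulated data. Replicates are mice. The number of arrays limits the precision. The methods' analysis of variance with Benjamini-Hochberg adjustment added (the methods' own test) was run as an alternative. Other filters, scalings, weights, a replicate block and fits without each mouse were also run. So was the methods' threshold, the same analysis of variance at an unadjusted p under 0.01 and a fold change over 1.2. Named genes were 16 set chains of dermis and junction (Col6a3 has no probeset named for it here), up to 10 called each way per comparison, and up to 4 called genes per partner list, in each case on the probeset with the highest mean. Members and lists were chosen with earlier results of these data known. Muscle or hair marker covariates, and fits without muscle-poor mice, were added after the data were seen. Figures were made with matplotlib 3.10.9.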

Additional observations from a re-analysis of the deposited data

Results flagged for a closer look

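Of 198 sets of 4 or 8 mice, 22 genes in 9 groups, 13 held a mouse far from the others of its group, and chance sets 1 in 20 such groups apart. Col15a1 was low in Cpd2 replicate 7 of Study 1 (log2 7.44) and in vehicle replicate 4 of Study 2 (7.29). That vehicle mouse was also low for Col3a1 (12.17) and Col5a1 (8.05). Col4a1 was high in Cpd6 replicate 3 of Study 2 (11.80), and Col4a2 was low in vehicle replicate 4 of Study 1 (11.03), the vehicle mouse lowest in muscle and endothelial markers. Col11a1 was high in Cpd2 replicate 2 of Study 1 (5.89), the Cpd2 mouse highest in hair follicle markers, high in Cpd2 replicate 2 of Study 2 (2.96) and low in Cpd6 replicate 3 of Study 4 (2.56). Col1a1 was low in Cpd1 replicate 3 of Study 1 (12.89), Col6a2 high in Cpd2 replicate 2 of Study 2 (9.64), Col6a5 low in Cpd18 replicate 3 of Study 4 (3.42) and Col6a6 high in vehicle replicate 2 of Study 4 (4.18). The Cpd2 effect on Col8a2 was higher in Study 1 than in Study 2 by 1.13 on the log2 scale, by the test of that difference (limma adjusted p 0.049).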

How the results depend on the processing

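Counts of called collagen probesets moved with some settings, and the cause was not tested; the share of all tested probesets called under the same setting stands in brackets. With Cpd2 in Study 1 the count of 9 (13.1%) became 5 without the muscle-poor mice (3.36%) and 4 with the muscle level as a covariate (3.43%). It became 6 by the methods' own test (10.3%) and ran from 6 to 12 with 1 mouse left out (9.98% to 17.7%). Against Cpd1 the 13 (17.2%) became 7 under each of the 2 muscle settings (4.62% and 5.52%), and 10 to 14 with 1 mouse left out (13.0% to 16.9%). With Cpd1 the 2 (0.327%) became 1 with medians set equal (0.261%), with quantile normalization (0.191%) and with a replicate block (0.208%). They became 0 by the methods' own test (0.0903%), and 1 to 2 with 1 mouse left out (0.146% to 0.702%). The count of 1 gene became 2 when all its probesets counted. With Cpd2 in Study 2 the 0 (0.129%) became 1 at the methods' threshold (1.02%). With 1 mouse left out it became 0 to 4 (0.0486% to 0.893%), 4 without vehicle replicate 1 (0.893%). With Cpd6 in Study 2 the 2 (0.379%) became 10 with array weights (3.75%) and 6 at the methods' threshold (2.53%). They became 0 with a replicate block (0.278%), by the methods' own test (0.0104%) and with the hair covariate (0.115%). With 1 mouse left out they became 0 to 8 (0.135% to 2.08%), 8 without vehicle replicate 1 (2.08%). With Cpd6 in Study 4 the 3 (10.7%) became 6 with array weights (15.1%) and 1 with the hair covariate (1.52%). They became 0 in 1 fit over 48 arrays (3.28%) and by the methods' own test (5.71%), and 2 to 4 with 1 mouse left out (4.53% to 10.4%). Against Cpd18 the 0 (0.490%) became 1 at the methods' threshold (2.04%). For the Cpd2 effect between studies the 1 (0.726%) became 4 with array weights (6.71%) and 4 without Study 1 vehicle replicate 4 (5.28%). It became 0 with no filter (0.388%) or a replicate block (0.726%), and 0 to 4 with 1 mouse left out (0.0903% to 5.28%). Replicate numbers did not pair the mice: same-numbered mice deviated with mean correlations from −0.16 to 0.16 across pairs of groups. Of 30 gene results, 256 values in 11 other settings kept their call and 53 lost it, and 365 of 448 left-out fits kept it, with 0 reversals. Precision is limited by 4 mice a group in Studies 2 and 4.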
